A study of Saccharomyces cerevisiae with 3 samples.

Results

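Regions of open chromatin that were listed for a yeast strain without SBA1, and for neither the wild type nor a strain without GCN5, are described here. The hypersensitive sites of 3 lists were merged wherever they touched or overlapped by at least 1 bp, on the nuclear chromosomes, and a merged region was kept when it held an sba1 deletion site and no site of the other lists. Of 4143 merged regions, 682 met this rule, which is 16.5%. They made up 28.7% of the 2380 regions with an sba1 deletion site and 16.2% of the bases under that list. Each of the 682 was a lone site. The regions were chosen by the authors' site calls in these same libraries, so their presence in 1 list and absence from the others is no finding. The same holds for the absence of other strains' sites from any stretch of a gene or promoter under a private region.

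The data are DNase-seq from Saccharomyces cerevisiae, in which DNase I cuts accessible DNA in isolated nuclei and heavily cut stretches are listed as hypersensitive sites. Nuclei were treated with a range of DNase I amounts. The 3 libraries came from haploid BY4741 (MATa), labelled wild type, sba1-/- and gcn5-/-, with 1 library each, and all were grown at the same temperature in rich medium with glucose. All 3 share the auxotrophic markers of BY4741, and the deletion isolates came from a commercial collection. The lists held 3260 sites over 1217 kb for wild type, 2439 over 1557 kb for sba1-/- and 3062 over 1251 kb for gcn5-/-. With no replicates no test between strains was possible, and no p-value is given. Intervals in parentheses are exact 95% binomial intervals and hold counting error alone. Read depth is unknown.

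SBA1 encodes the yeast p23, a co-chaperone that binds Hsp90 in its ATP-bound state and also releases some transcription factors from DNA. Gcn5 acetylates histone H3 as the catalytic subunit of SAGA. In yeast, the nucleosome-depleted promoter is the usual hypersensitive site, and coding sequence is mostly packed in positioned nucleosomes that RNA polymerase II displaces at highly transcribed genes.

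The lists hold sites and no read levels, so they do not show whether either gene was deleted. SBA1 had no private region, had a promoter site in all 3 lists, and 1.84% of its coding sequence lay under sba1 deletion sites. GCN5 (YGR252W, chromosome VII 996869 to 998188) held 2 private regions, the better-scored at 997516 to 997738, which together covered 29.4% of its coding sequence. No site of the wild type or the gcn5 deletion lay in its coding sequence. The rule sets this over the private stretches. If the labelled deletion took out this sequence, the gcn5 deletion list could hold no site there. HSP82 and HSC82, the genes of Hsp90, had no coding or promoter site in any list.

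The private regions were of low to middling score in their own list. The authors' score, which has no stated scale and is used only within a list, ranged from 1.86 to 3.61 with a median of 2.09. Their median rank was the 34.2nd percentile of the sba1 deletion list. Among the 10 equal score bins of that list, private regions made up 33.7% to 45.5% of each of the lowest 6 bins, 25.5% of bin 7, 17.6% of bin 8, 1.23% of bin 9 and none of the 244 sites of bin 10. How far depth or the calling threshold set the membership was not tested.

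Widths ran from 12 to 2269 bp, with a median of 251 bp and quartiles of 154 and 548 bp. Regions found only in wild type had a median of 129 bp and those found only in the gcn5 deletion 117 bp, and no region of either class exceeded 1 kb, against 24 of the 682. Wider sites were a feature of the whole sba1 deletion list, with a median of 350 bp against 247 bp for wild type and 261 bp for the gcn5 deletion. The sba1 deletion sites that all 3 strains shared were wider, at a median of 435 bp. Within each of score bins 1 to 9 the private sites had the higher median width, from 80 bp against 63 bp in bin 1 to 1114 bp against 1052 bp in bin 9, with the widest gap in bin 6, at 575 bp against 358 bp. Bin 9 held only 3 private sites. Score and width went together among the private regions, with Spearman's rho of 0.911 over 682 regions of 1 library.

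Private regions lay at widely varying distances from the sites of the other strains. The median gap to the nearest wild-type or gcn5 deletion site was 871 bp, and 303 regions, or 44.4%, were more than 1 kb away. The gap to the next site of the sba1 deletion itself was shorter, with a median of 432 bp, and 53.1% had one within 500 bp. At the boundary of the rule, the nearest member lay 18 bp from a site of another strain, over the end of IDH1, a subunit of isocitrate dehydrogenase. The next were at 34 bp (INM2), 36 bp (STU2), 40 bp (CTR1) and 51 bp (DAN4). Just outside it, sba1 deletion sites of 5 bp at GFA1, 7 bp at PRE2, 9 bp at ICT1 and 10 bp at LOS1 lay wholly under another strain's site, and one at SPO7 overlapped by 11 bp. Of the regions left out, 61 had an overlap of 50 bp or less, and 4 members had a gap of 50 bp or less.

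Private regions lay mainly inside genes. Their midpoints fell in coding sequence for 498 of 682, or 73.0% (69.5 to 76.3), and in promoter windows, the non-coding bases up to 500 bp before a start codon, for 140, or 20.5% (17.6 to 23.8). Of the nuclear span, 72.9% is coding, close to the share of midpoints, and 16.0% is promoter window, below the interval of the midpoints. Regions found only in wild type were centred in coding sequence at 50.5% (46.4 to 54.6), those only in the gcn5 deletion at 32.8% (27.3 to 38.8), and those in all 3 strains at 30.9% (28.5 to 33.3). Regions of 1 strain leave out, by their rule, the promoters where shared sites lie. The interval of the private regions lay above those of these 3 classes, but each list rests on 1 library and no test was run. When 50% of both sites had to overlap for a site to count as shared, 58.3% of private regions were centred in coding sequence.

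**Figure D1:**
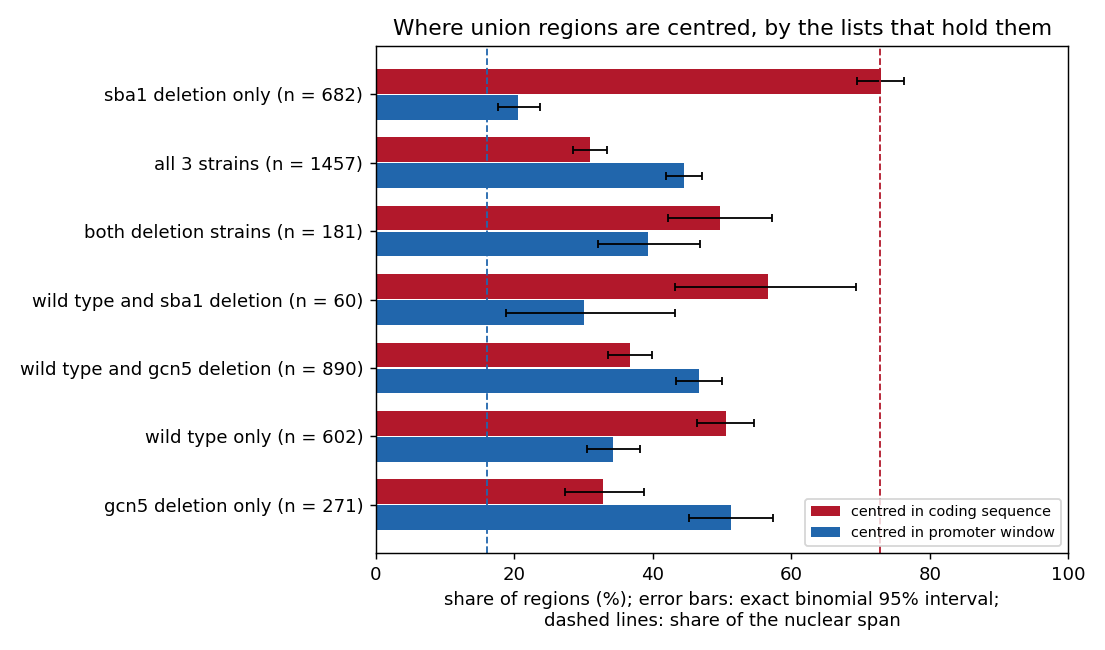
Share of merged regions centred in coding sequence (red) and in promoter windows outside coding sequence (blue), in percent, for the 7 combinations of lists that hold them, with exact binomial 95% intervals as error bars and the share of the nuclear span as dashed lines. Regions private to the sba1 deletion, at 73.0% and 20.5%, lie nearest to the dashed lines at 72.9% and 16.0%.

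Seen by their outline, 358 private regions, or 52.5% (48.7 to 56.3), lay wholly inside 1 coding sequence. Another 122 ran over a start codon only, 74 over a stop codon only and 17 over the end of one gene and the start of another. A whole coding sequence lay under 19 of them, and 92, or 13.5%, touched none. Of the regions found only in wild type 43.4% lay inside 1 coding sequence and 37.0% touched none, while for the gcn5 deletion alone these were 26.9% and 58.7%. The private regions were also wider, which by itself raises the chance of touching a gene.

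Within genes the private regions were spread along the coding sequence, with fewer towards the end. Over 5 equal parts of the gene from the start codon, the 499 gene positions of their midpoints divided into 22.4%, 21.6%, 20.8%, 20.6% and 14.4% (11.5 to 17.8). Around start codons, between 2.33% and 3.58% of genes had a private region at each distance out to 1000 bp, with the highest value 400 bp inside the gene. Regions found only in wild type peaked instead 150 bp upstream, at 2.00% of genes, and were at 0.53% at 400 bp inside. Those of the gcn5 deletion alone peaked at the same upstream place, at 1.25%. Past the stop codon the private regions were at their lowest, 1.55% of genes at 400 bp, while wild-type-only regions were at 1.30% at 150 bp.

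**Figure D2:**
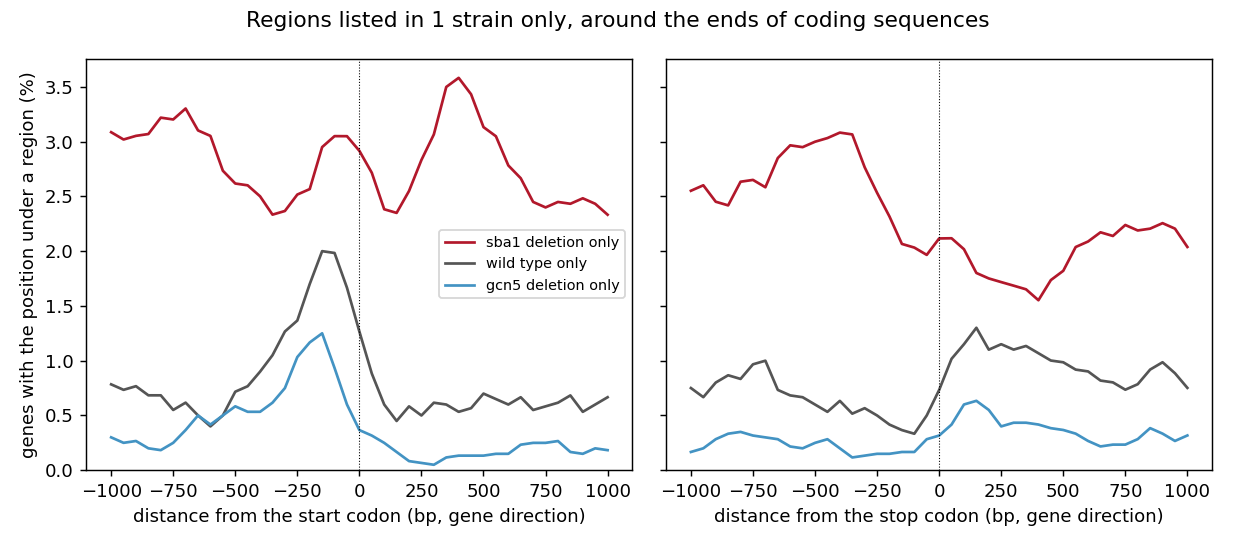
Percent of protein-coding genes with a region at each distance in bp from the start codon (left) and the stop codon (right), in gene direction, for regions listed in 1 strain only. The red line of the sba1 deletion stays between 2.33% and 3.58% on the left with its high at 400 bp downstream, while the grey wild-type line has its high of 2.00% at 150 bp upstream and the blue gcn5 deletion line its high of 1.25% there.

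The 184 private regions centred outside coding sequence lay mostly between tandem or divergent genes. Tandem gene pairs held 99 of them, divergent pairs 72 and convergent pairs 13, or 7.07%, where convergent spaces make up 16.1% of intergenic length. The convergent share was also below that in regions of the gcn5 deletion alone, at 8.24%, in those of all 3 strains, at 10.1%, and in those of wild type alone, at 13.1%. It was above that in regions of both deletion strains, at 2.20%. The best-scored of the 184 was centred between BMH1 and PDA1. Next came a region of 885 bp at chromosome III 133010 to 133894, which ran over the start of the acetate transporter gene ADY2 and the end of ADP1, with a score of 3.01. A region of 566 bp at chromosome VI 153067 to 153632 held the divergent promoter of YPI1, an inhibitor of protein phosphatase 1, and RPN11, the deubiquitinase of the proteasome lid. One of 934 bp at chromosome XIII 592408 to 593341 lay over the start of PAH1, the phosphatidate phosphatase, one of 911 bp at chromosome XI 92074 to 92984 over the end of MTR2, which acts in mRNA export, and one of 1088 bp at chromosome II 101008 to 102095 over the divergent starts of PRX1 and the kinesin gene KIP1. That at PRX1 and KIP1 was 4760 bp from any wild-type or gcn5 deletion site.

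The highest-scored private region spanned chromosome V 545954 to 547535, 1582 bp with a score of 3.61, above 82.0% of its list. It began inside BMH1, a 14-3-3 protein, and ended inside PDA1, the E1 alpha subunit of pyruvate dehydrogenase, of which it covered 56.9%. The wild type had no site in PDA1 coding sequence and covered 14.6% of BMH1. The second, of 1114 bp at chromosome V 194835 to 195948, held the start of GPA2, the G protein alpha subunit of glucose sensing, and covered 57.9% of it. GPB2, a kelch protein that works with Gpa2, had the eleventh, 761 bp inside its coding sequence at chromosome I 40763 to 41523. The others of the first 12 covered 100% of YNL195C and of the mannosyltransferase gene ALG3, 85.3% of FMP52, 83.9% of SWC5, a subunit of the SWR1 remodeller, 74.3% of ASR1, 60.2% of the cell wall mannoprotein gene FIT1, 937 bp inside BBC1, and 13.8% of RIM15, a kinase of stationary phase entry. The twelfth was in ADH2.

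The widest private regions each took in most of a gene. The 2269 bp at chromosome V 399424 to 401692 held all of AVT6, a vacuolar amino acid exporter, and 75.9% of SCS2, which tethers the endoplasmic reticulum to the plasma membrane and which a second private region brought to 81.8%. One of 2025 bp at chromosome IX 131232 to 133256 ran from inside POG1 into QDR2, a multidrug transporter, covering 41.1% and 62.2%. The others were 1764 bp at ALG3, 1632 bp over the whole of YGR210C and 1603 bp over 82.8% of MDM31, a mitochondrial inner membrane protein. AVT6, ALG3 and YGR210C lay wholly under private regions, so the rule allowed no wild-type or gcn5 deletion site in their coding sequence. SCS2, QDR2, POG1 and MDM31 had none in the rest of their coding sequence either, which the rule did not ask for.

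Counted by gene, 558 of 6002 protein-coding genes had a private region on at least 1 bp of coding sequence, a background of 9.30%. At least 50% of the coding sequence was covered in 111 genes, or 1.85%, and all of it in 19. Of the 558 genes, 407 had no wild-type or gcn5 deletion site elsewhere in the coding sequence, which is 72.9%, where 61.3% of all genes had none. Of the 111 this held for 99, whose coding sequence also leaves less room for other sites. Each of the 558 genes holds a stretch that the rule keeps free of such sites, so both counts are in part set by the rule. The fully covered genes were short, from 153 to 1377 bp. Beside those named above they included YER084W, CUE1, which recruits the ubiquitin-conjugating enzyme Ubc7 to the endoplasmic reticulum, MIC10, a scaffold of mitochondrial cristae, CKS1, the cyclin-dependent kinase subunit, and DUT1, the dUTPase. A private region was found in 6.00% of the shortest of 5 equal groups of genes by length and 10.9% of the longest, a smaller spread than that of wild-type-only regions, at 2.50% and 10.6%.

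Genes with a private region in the body had a promoter site in wild type at 33.2% (29.3 to 37.2), against 43.2% of all genes. The shares were 65.9% for the sba1 deletion, against 38.7% of all genes, and 36.9% for the gcn5 deletion, against 43.9%. Where a private region itself runs into the promoter window, the rule allows no wild-type or gcn5 deletion site to touch it, so these shares are in part set by the rule. Where no private region reached into the promoter window, which was so for 366 genes, a promoter site was listed for 47.8% in wild type, with 48.1% for the sba1 deletion and 51.6% for the gcn5 deletion. Between strains these shares differed by less than their counting intervals. Each was above the share of all genes in its strain, at 43.2%, 38.7% and 43.9% in the same order. The wild-type interval, 42.6 to 53.1, took in its share of all genes, and those of the deletion strains did not.

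Up to 4 private regions lay in 1 gene, and 75 genes had more than 1. PYC1, a pyruvate carboxylase, had 4 that covered 20.8%, and so had FLO1, a flocculin, with 17.2%. The helicase subunit gene MCM6 had 3, which covered 24.6% against 2.13% under wild-type sites.

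Groups of genes were described by the share of members with a private region in coding sequence, beside the 9.30% of all genes. Glycolysis and fermentation stood highest, with 11 of 27 members or 40.7% (22.4 to 61.2). That count was 5 with the better-scored 50% of each list, where all genes were at 7.31%, and 19 when shared sites had to overlap by 50%, where all genes were at 18.0%. Plasma membrane permeases had 10 of 41 or 24.4% (12.4 to 40.3) and cell wall genes 12 of 51 or 23.5% (12.8 to 37.5). Galactose and glucose-repressed genes had 6 of 26 or 23.1% (8.97 to 43.6), an interval that takes in 9.30%. Amino acid biosynthesis had 12 of 65 or 18.5% (9.92 to 30.0). Median gene lengths in these lists, glycolysis and fermentation first, were 1314, 1827, 1368, 1670 and 1326 bp, against 1200 bp for all genes. In the same lists, regions found only in wild type touched 0, 1, 0, 2 and 2 members, where the background was 5.91%. Regions of the gcn5 deletion alone touched 0, 1, 0, 0 and 3, against 1.90%. With all listed sites counted, private or not, glycolysis and fermentation was above all genes in every strain. A coding site was listed for 14 of its 27 members in wild type, 17 for the gcn5 deletion and 23 for the sba1 deletion. Of all genes 33.6%, 31.5% and 32.2% had one, in the same order. A place above all genes was thus not confined to private regions. Mean coding coverage by all listed sites was 10.7% in wild type, 16.0% for the gcn5 deletion and 47.9% for the sba1 deletion. Over all genes it was 8.08%, 8.24% and 13.7%. In wild type, a coding site was listed for 18 of 41 permease, 14 of 51 cell wall, 13 of 26 galactose and glucose-repressed and 27 of 65 amino acid biosynthesis genes. For the sba1 deletion these were 27, 26, 17 and 33.

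**Figure D3:**
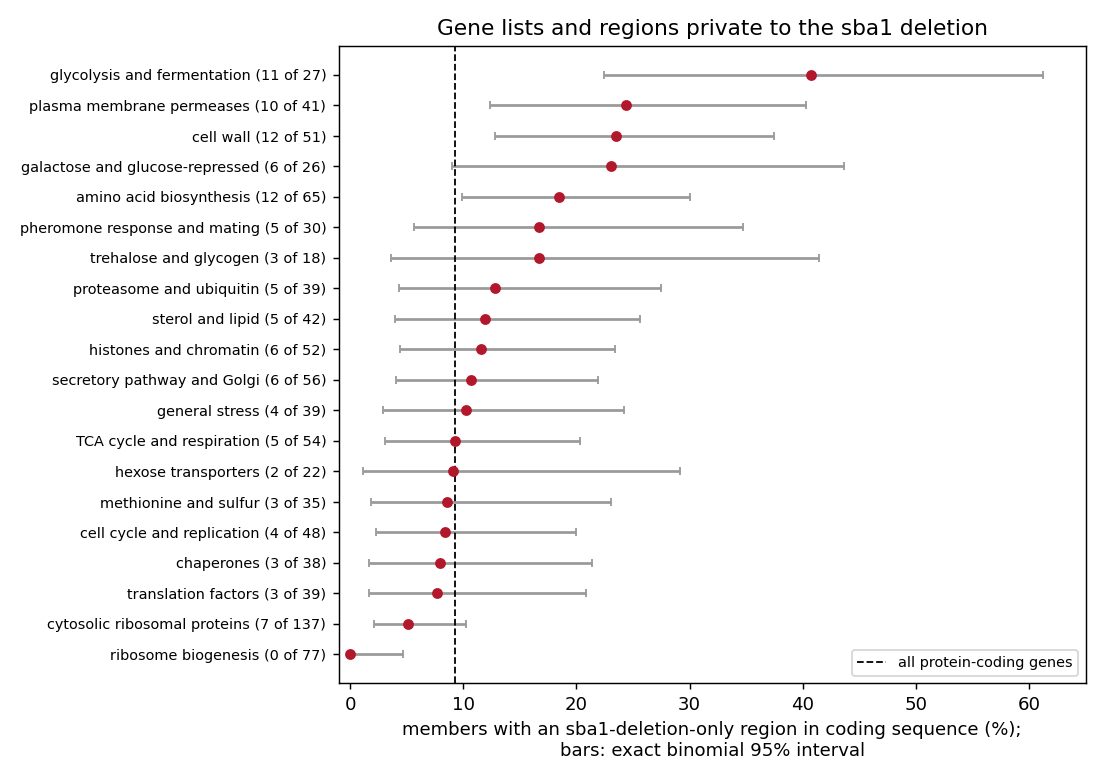
Percent of the members of 20 gene lists with a region private to the sba1 deletion on at least 1 bp of coding sequence, with exact binomial 95% intervals over members and the 9.30% of all protein-coding genes as a dashed line. Glycolysis and fermentation is at 40.7% at the top and ribosome biogenesis at 0 of 77 at the bottom.

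Among the genes of glucose fermentation, ADH2, the glucose-repressed alcohol dehydrogenase that oxidises ethanol, had the most. Its coding sequence (chromosome XIII 873291 to 874337) was covered to 81.2% in the sba1 deletion by 2 private regions, and to 0% in both other lists. The better-scored began 353 bp after the start codon and ended 15 bp before the end of the gene. GPD1, the glycerol 3-phosphate dehydrogenase of osmotic adaptation, had a promoter site in all 3 lists and a private region of 634 bp in its coding sequence, at chromosome IV 412191 to 412824. Coverage of GPD1 was 23.6% in wild type, against 80.9% for the sba1 deletion and 18.6% for the gcn5 deletion. The minor pyruvate kinase PYK2 was covered to 0%, 52.0% and 2.76% in the same order, of which 42.5% was private.

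Enzymes of the central pathway had shorter private stretches. GPM1, phosphoglycerate mutase, was covered to 32.7% by a private region of 243 bp and had no other coding site in any list. Aldolase, FBA1, had 27.5% under a private region of 297 bp, and PFK2, the beta subunit of phosphofructokinase, 20.6% under one of 592 bp. The glyceraldehyde 3-phosphate dehydrogenase genes TDH1, TDH2 and TDH3 each had 1, over 15.5%, 11.7% and 23.7% of the gene, and each ran past the stop codon. PDC5 and HXK1 had 15.6% and 6.79%. CDC19, the main pyruvate kinase, had none in coding sequence but one of 238 bp in its promoter window, at chromosome I 71179 to 71416. The TDH genes, ADH2 and other members have close copies, and the sources used here do not say how reads that match more than 1 place were treated.

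**Figure D4:**
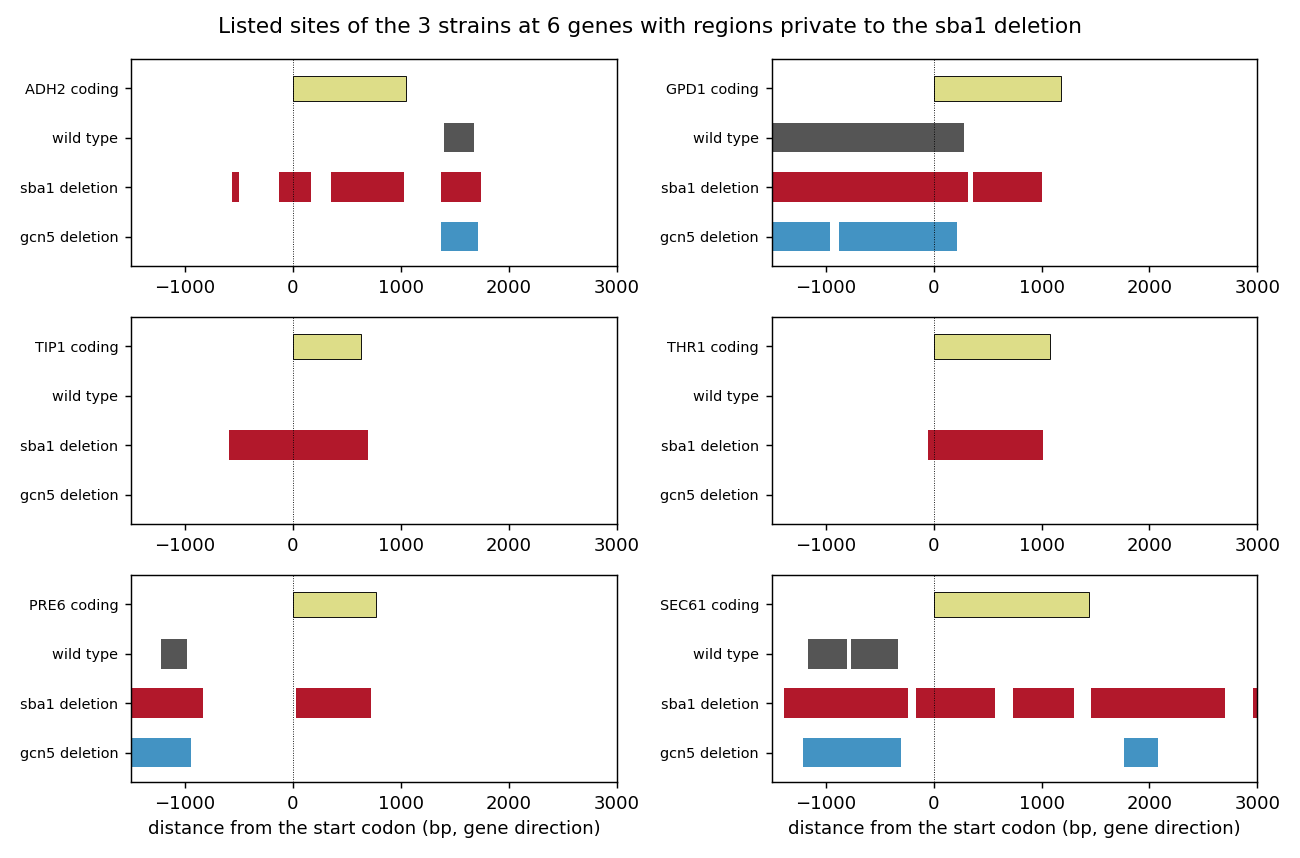
Listed sites of the wild type (grey), the sba1 deletion (red) and the gcn5 deletion (blue) at 6 genes from the lists, by distance in bp from the start codon in gene direction, with the coding sequence as a yellow box. Coding coverage by private regions is 81.2% at ADH2, 53.9% at GPD1, 100% at TIP1, 94.6% at THR1, 90.8% at PRE6 and 78.9% at SEC61, and the wild type has no coding site at any of these but GPD1. Over the private stretches, and so over all of TIP1, the rule itself allows none.

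Among cell wall genes TIP1, a mannoprotein of the cold shock response, lay wholly under a private region of 1288 bp at chromosome II 372045 to 373332. That region began 597 bp before the start codon and so also took in the promoter window of TIP1. By the rule, the other lists could then have no coding or promoter site there. PIR3 had 79.2%, DAN1, an anaerobic mannoprotein, 63.1% and SUN4 49.6%, all with 0% in both other lists. HPF1 had 36.3% in private regions and 82.3% under all sba1 deletion sites, against 0% and 30.1% in the other lists. The flocculin genes FLO1, FLO5, FLO10 and FLO11 held 4, 1, 2 and 1 private regions, over 5.08% to 25.6% of the gene. TIR4, GAS1 and DAN4 had 2.84% to 19.6%. FLO1 and FLO5 are near-identical over long stretches, so their values are uncertain.

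In amino acid biosynthesis the private regions fell on scattered pathways. THR1, homoserine kinase, was covered to 94.6% by a region of 1069 bp that began 53 bp before the start codon. ARO2, chorismate synthase, was covered to 85.6% and BAT2, the cytosolic branched-chain aminotransferase, to 63.0%. These 3 genes had no coding or promoter site in wild type or the gcn5 deletion. Over the private stretches, which took in most of their coding sequence, the rule itself allowed none. ILV3, with 27.9%, and GLN1, with 25.2%, had a promoter site in all 3 lists. The other 7 members, HIS7, ASN2, ILV2, LYS1, LYS20, ARG1 and SHM2, had between 3.83% and 20.4%.

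Transporters of the plasma membrane followed. The ammonium permease genes MEP1 and MEP2 were covered to 66.3% and 50.3% with none in the other lists, and MEP3 had a private region in its promoter window only. ALP1, a basic amino acid permease, had 40.0%, and the copper transporter gene CTR1 27.1% in 2 regions. PHO89, PMA2, FUR4, LYP1, GAP1 and NHA1 had 4.43% to 18.5%. Among glucose-repressed genes ICL1, isocitrate lyase of the glyoxylate cycle, had 43.5% and no other coding site, and POX1, acyl-CoA oxidase, 21.7%, while ADY2, FBP1, GAL4 and SIP4 had 1.65% to 13.5%.

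Groups near the background still held some widely covered genes. The proteasome and ubiquitin list had 5 of 39 (12.8%). The core particle genes PRE6 and PUP3 were almost wholly covered, PRE6 to 90.8% and PUP3 by a region of 597 bp, and PUP3 had a promoter site in all 3 lists. The secretory list had 6 of 56 (10.7%), where SEC61, the translocation channel, had 78.9% in 2 regions and SEC62, of the same translocon, 83.6%. General stress genes had 4 of 39 (10.3%), with GRE1 covered to 100%. Methionine and sulfur genes had 3 of 35 (8.57%), where MET2, homoserine O-acetyltransferase, had 61.4% and STR3 41.3%. PRE6, PUP3, SEC61, SEC62, GRE1, MET2 and STR3 had 0% under wild-type and gcn5 deletion sites. The rule sets this over the private stretches, so wholly for GRE1 and almost wholly for PRE6 and PUP3.

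The remaining lists with private regions in coding sequence were pheromone response with 5 of 30 (16.7%), trehalose and glycogen with 3 of 18 (16.7%), sterol and lipid genes with 5 of 42 (11.9%), histones and chromatin with 6 of 52 (11.5%), TCA cycle and respiration with 5 of 54 (9.26%), hexose transporters with 2 of 22 (9.09%), cell cycle and replication with 4 of 48 (8.33%), chaperones with 3 of 38 (7.89%) and translation factors with 3 of 39 (7.69%). No gene of these lists was covered by 50% or more. The highest was LSC1, a subunit of succinyl-CoA ligase, at 45.5%, followed by the sterol genes ERG3 at 40.6% and ERG2 at 39.9%. Among chromatin genes SGF73, of the SAGA deubiquitination module, had 35.8% and SNF5, of SWI/SNF, 29.4%. The chaperone genes were HSP60 at 29.8%, CCT2 at 14.4% and SSA4 at 12.4%. The hexose list had private regions in the glucose sensors SNF3 (15.9%) and RGT2 (15.0%) and in the coding sequence of no HXT gene, while HXT11 and HXT13 had one in the promoter window.

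Genes of ribosome synthesis lay at the other end. None of 77 ribosome biogenesis genes had a private region in coding sequence, a count of 0 whose exact interval reaches 4.68% and which by the rule of 3 counts allows a share of up to 3.90%. Here regions only in wild type touched 5 of them and those only in the gcn5 deletion 3. The count was 2 with the better-scored 50% of each list, 5 with the 50% overlap and 1 with lists of equal size. All genes were at 7.31%, 18.0% and 10.8% in these settings. Sites of the whole sba1 deletion list did reach the coding sequence of 13 of the 77, against 20 for wild type and 18 for the gcn5 deletion. In the sba1 deletion this is 16.9% of the list, where 32.2% of all genes had a coding site. The list was also below all genes in the other strains, at 20 of 77 where all genes were at 33.6% in wild type, and at 23.4% against 31.5% for the gcn5 deletion. In promoter windows the list was not empty of private regions: ENP1, KRR1, DBP10, UTP7, YTM1 and NOG1 had one, 6 of 77 or 7.79% against 6.10% of all genes. Cytosolic ribosomal protein genes had 7 of 137 in coding sequence, 5.11% (2.08 to 10.2), of which RPL10 had 40.5%, RPL3 19.8% and RPS0A 17.6%, and RPS4A, RPL19B, RPP0 and RPL20A had under 7%. RPL10, RPL3, RPL19B and RPL20A had no wild-type coding site.

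Promoter windows held private regions at 366 genes, a background of 6.10%. By list, the promoter share was 14.8% in glycolysis and fermentation (4 of 27), 16.7% in trehalose and glycogen (3 of 18), 12.8% in general stress (5 of 39) and 10.4% in cell cycle and replication (5 of 48). All these intervals took in 6.10%. No pheromone response gene of 30 had one, a count of 0 whose exact interval reaches 11.6%.

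Transfer RNA genes are usually accessible in yeast. Private regions touched 6 of 275, or 2.18%, while the whole sba1 deletion list touched 120 and the wild-type list 121. The private regions cover 2.09% of the nuclear span, a share of bases, which is not the same measure as a share of genes touched. Of 76 small nucleolar RNA genes 2 were touched, SNR18, which lies within EFB1, and SNR8. No ribosomal RNA gene of 12 was.

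Private regions were densest on chromosome I, the shortest. It had 29 in 230 kb, or 12.6 per 100 kb with an exact Poisson interval of 8.44 to 18.1 for counting error, where the other 15 chromosomes had 4.01 to 7.77 with a median of 5.75. Of its regions with an sba1 deletion site 44.6% were private, against 23.5% to 38.2% elsewhere. Chromosome I did not stand out for regions found only in wild type, at 4.78 per 100 kb against 4.99 over all chromosomes, nor for those of all 3 strains, at 12.6 against 12.1. Among the 16 it was the only one with more listed sites for the sba1 deletion than wild type, 65 against 54, and the gcn5 deletion had 52. Chromosome I held 4.25% of private regions (2.87 to 6.05) and makes up 1.91% of the span. With the better-scored 50% of each list it held 2.32% (1.07 to 4.36), an interval that takes in its share of the span.

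The chromosome I regions were narrow, with a median of 207 bp, and lay between positions 34775 and 207769. Of the 29, 86.2% were centred in coding sequence. BDH1, butanediol dehydrogenase, was covered to 54.7% and had a second private region in its promoter window. POP5, a protein of RNase P and RNase MRP, had 2 that covered 71.6%, BOL3 had 86.6% and CNE1, the yeast calnexin, 46.1%. CLN3, the cyclin of the G1 phase, had 22.2% at its start. The FLO1 gene held 4 of the 29. Over all 16 chromosomes density against length had Spearman's rho of -0.35, and over the 15 others -0.21. Within 25 kb of chromosome ends lay 36 private regions, or 5.28%, where this zone makes up 6.63% of the span.

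**Figure D5:**
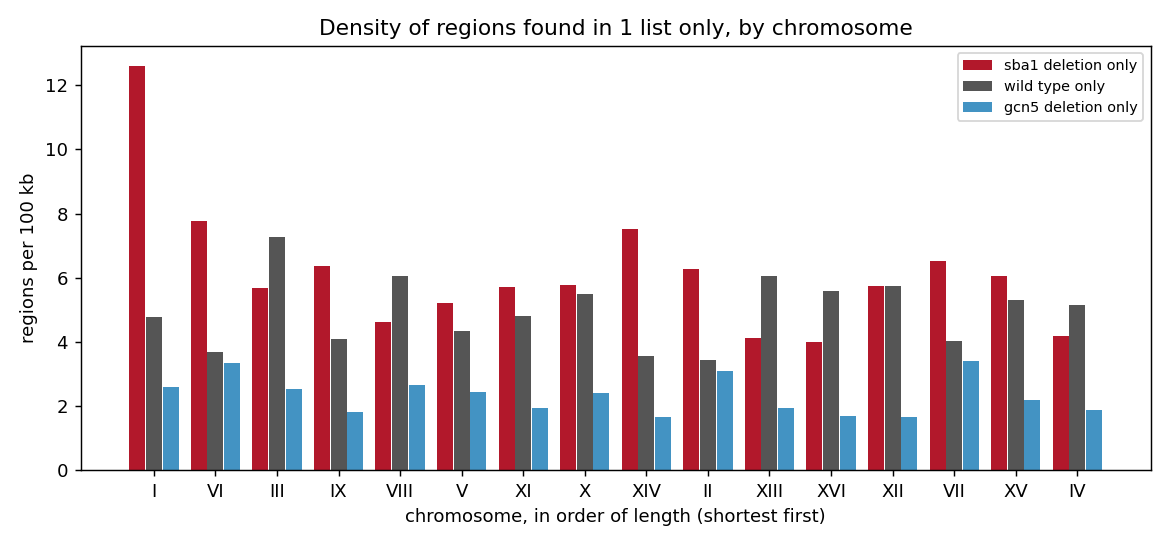
Regions per 100 kb that are listed in 1 strain only, for the 16 nuclear chromosomes in order of length, as bars for the sba1 deletion (red), wild type (grey) and the gcn5 deletion (blue). The red bar of chromosome I reaches 12.6, above the 4.01 to 7.77 of the other chromosomes, while its grey bar of 4.78 lies among the others.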

How the data were processed

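Sites were taken from 1 deposited list per strain, each with no header and with columns of positions, names and scores, made per library by the authors. The score deposited by the authors has no stated scale. Reads were aligned with Bowtie 0.12.7 to sacCer3, per the submitters' processing notes. Neither the caller of the sites nor its cutoff is given in the sources used here. Depth is unknown.

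Groups came from the genotype labels. Positions are 1-based. Genes came from the RefSeq table of assembly R64, whose coordinates were taken to match sacCer3, with 6002 nuclear protein-coding genes, whose spans include introns; strand was read from systematic names. Promoter windows were 500 bp. Of 938 names in 20 gene lists 936 matched, 2 of them by synonym. No sequence was used, so no motif was searched.

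The regions and lists were chosen with earlier results of these data known. Named were SBA1, GCN5 and the Hsp90 genes, the 12 highest-scored and 5 widest regions, the 6 best outside coding sequence, those nearest the rule's boundary, up to 4 best-covered members of each list and 6 fully covered genes outside them, with other members added for context after their values were seen. No test between strains was run. Alternatives covered merging, width, score, overlap, windows, chromosome ends and coverage. Code was tested on simulated lists. Tables were handled with pandas 2.3.3 and numpy 2.4.6 under Python 3.11.15, intervals came from scipy 1.17.1, and plots from matplotlib 3.10.9.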

Additional observations from a re-analysis of the deposited data

Results flagged for a closer look

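On 4 chromosomes the number of listed sites differed from wild type in opposite directions in the deletion strains. As differences from wild type in number of sites, chromosome I had 11 for the sba1 deletion and -2 for the gcn5 deletion. On chromosomes II, VI and VII these were -41, -8 and -50 for the sba1 deletion, and 3, 16 and 6 for the gcn5 deletion. With 1 library per strain these differences were not tested.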

How the results depend on the processing

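No paired analysis was possible because each strain has 1 library. With the better-scored 50% of each list there were 388 private regions with a median width of 734 bp, 68.8% centred in coding sequence and 25.3% in promoter windows, and 174 genes were covered by 50% or more. When 50% of both sites had to overlap for a site to count as shared, these values were 1342, 275 bp, 58.3%, 29.4% and 368. Every site set to 250 bp gave 36 such genes, coverage of 90% gave 27 and of 1 bp 558, and a promoter window of 250 bp gave 14.5%. Merging within 150 bp, equal list sizes, single sites and leaving out chromosome ends moved none of these 5 results beyond their intervals or 1.5 times.

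The following were chosen after seeing the data. Glycolysis and fermentation genes numbered 5 of 27 in the better-scored 50%, beside 7.31% of all genes, and 19 in the 50% overlap setting, beside 18.0%. Elsewhere they numbered 8 to 16. The 8 came with merging within 150 bp, beside 8.16% of all genes, and the 16 with sites of 250 bp, beside 11.1%. Ribosome biogenesis genes numbered 2 of 77 in the better-scored 50%, 5 in the 50% overlap setting and, with equal list sizes, 1. All genes were at 7.31%, 18.0% and 10.8% in these settings. Chromosome I held 2.32% of private regions in the better-scored 50% and 4.25% as reported, where it makes up 1.91% of the span. Leaving chromosome I out changed no result by more than its interval or 1.5 times. In these settings fewer or other sites entered; the cause was not tested further. A single library per strain, unknown depth and an unscaled score limit every statement.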
